A study of Homo sapiens with 9 samples.

Results

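The calnexin and calreticulin cycle genes are 10 genes whose products bind, trim, re-glucosylate or discard newly made glycoproteins in the endoplasmic reticulum (ER). They were taken by symbol from the gene count table: CANX, CALR, PDIA3, MOGS, GANAB, UGGT1, UGGT2, EDEM1, EDEM2 and EDEM3. All 10 were found among 58735 genes, and all 10 passed the filter on low counts together with the rest of the 15555 genes tested. The RNA came from VCaP cells, an androgen-sensitive human prostate cancer line. Cells of every group were grown with serum and 2 nM DHT (dihydrotestosterone) and received an siRNA. The 3 siCtrl libraries, labelled WT, received a control siRNA. The 3 siCDO1A and the 3 siCDO1C libraries, both labelled CDO1 knockdown, received 1 of a pair of siRNAs against CDO1, the cysteine dioxygenase that turns cysteine into cysteine sulfinic acid. The comparisons ask how the cycle genes stood once CDO1 was lowered. Each siRNA was compared with the same 3 siCtrl libraries, so the results of the siRNAs share their controls. All libraries came from 1 cell line, in which a group differs from another by the siRNA given in a transient transfection. An effect of an siRNA on other transcripts cannot be told apart from an effect of lowering CDO1 within a single siRNA.

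A glycoprotein enters the ER with a glucose-capped glycan. Glucosidase I (MOGS) removes the outermost glucose and glucosidase II (catalytic subunit GANAB) the next, which leaves a single glucose that the membrane-bound lectin calnexin (CANX) and its soluble relative calreticulin (CALR) can hold, with the disulfide isomerase ERp57 (PDIA3) as their partner. When the last glucose is removed, UGGT1 or UGGT2 puts it back on a protein that is still misfolded, and EDEM1, EDEM2 and EDEM3 take part in mannose trimming that sends terminally misfolded proteins to degradation. CALR and CANX belong to the genes that the unfolded protein response can raise, and the ER stress response element (ERSE) is the promoter sequence through which ATF6 acts together with NF-Y.

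The promoters of the lectin chaperones CALR and CANX are shown because these were the members in which the element was found. Both were called lower with each siRNA, but the CANX calls were lost under several alternatives given below. EDEM1 was also called lower with each siRNA, and its window held no match. RefSeq sequences (GRCh38.p14) of the bases before the start site were held for 8 of the 10 members, with several start sites for CANX. Entries were lacking for MOGS and PDIA3. The 250 bases before each start were searched on both strands for ERSE, which is CCAAT and CCACG with 9 bases of any kind between them, for ERSE-II, which is ATTGG and CCACG with 1 base between them, and for the core of the UPR element, TGACGTGG. ERSE and ERSE-II share the letters CCACG. ERSE was present before 1 start of CALR and before 2 of the neighbouring starts of CANX, where it is the same stretch of DNA. It was present in 26 of all 35116 promoters of the same length, or 0.074%. Neither ERSE-II, found in 0.0513% of promoters, nor the UPR element core, found in 0.612%, was present in these windows of the 8 members. A match describes letters and no binding was measured. The capitals mark the ERSE match, which lies on the reverse strand in CALR and on the gene's strand in CANX, and both sequences are given 5′ to 3′ on the plus strand, chr19:12938359-12938608 for CALR and chr5:179698679-179698928 for CANX.
CALR: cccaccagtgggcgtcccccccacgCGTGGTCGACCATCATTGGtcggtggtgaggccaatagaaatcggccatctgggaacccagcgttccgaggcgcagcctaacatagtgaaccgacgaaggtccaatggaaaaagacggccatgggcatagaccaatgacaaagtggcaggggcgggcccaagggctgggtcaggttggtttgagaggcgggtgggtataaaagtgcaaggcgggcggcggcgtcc
CANX: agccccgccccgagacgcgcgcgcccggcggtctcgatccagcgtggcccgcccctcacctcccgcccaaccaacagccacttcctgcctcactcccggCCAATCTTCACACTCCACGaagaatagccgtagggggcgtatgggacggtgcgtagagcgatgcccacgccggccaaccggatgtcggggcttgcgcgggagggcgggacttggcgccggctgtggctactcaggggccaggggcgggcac
Read on its own strand, the element of CALR is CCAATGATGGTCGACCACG and that of CANX is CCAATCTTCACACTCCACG. The CALR match covers the bases from -225 to -207 before the start and the CANX match those from -151 to -133.

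The libraries held between 12061295 and 16073698 counted fragments. CDO1 itself (ENSG00000129596) was at 14.2, 14.1 and 13.6 CPM (counts scaled to a common library size after TMM normalization) in siCtrl, at 3.28, 2.05 and 2.18 CPM in siCDO1A and at 1.09, 2.81 and 1.15 CPM in siCDO1C, so that the target was low in every library labelled as a knockdown. All 11 prostate epithelial and VCaP markers examined averaged at least 1 CPM. Of 9 stromal, endothelial and leukocyte markers, 4 did, with a summed level of 17.9 to 26.8 CPM in any library against 6586 to 7799 CPM for the prostate markers. LUM made up most of that smaller sum in each library, at 11.2 to 18.5 CPM. The summed prostate markers were lower in siCtrl (6586 to 6736 CPM) than in siCDO1A (7414 to 7799 CPM) or siCDO1C (6934 to 7103 CPM), and their part in the results was not tested.

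Before any comparison, the members covered a wide range of levels. Divided by the gene length given in the count table, the mean in siCtrl was 703.9 ± 26.2 CPM per kilobase for CALR, 363.4 ± 17.9 for CANX, 149.9 ± 2.39 for PDIA3 and 123.2 ± 1.51 for GANAB (SD, n = 3). These 4 genes did not overlap one another in siCtrl. A second tier held UGGT1 at 12.4 ± 1.20, MOGS at 11.8 ± 0.421 and EDEM1 at 11.7 ± 0.704 CPM per kilobase, and their ranges overlapped, so that no order among them was resolved. EDEM3 (10.2 ± 0.461) and EDEM2 (6.81 ± 0.526) lay below them, and UGGT2 was lowest at 0.608 ± 0.0213 CPM per kilobase. CALR made up 50.5% of the summed length-scaled level of the 10 genes in siCtrl, 48.5% in siCDO1A and 45.9% in siCDO1C, while CANX stayed between 24.8% and 28.1% in any library. UGGT1 was 20.3 times UGGT2 in siCtrl on this scale.

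**Figure D1:**
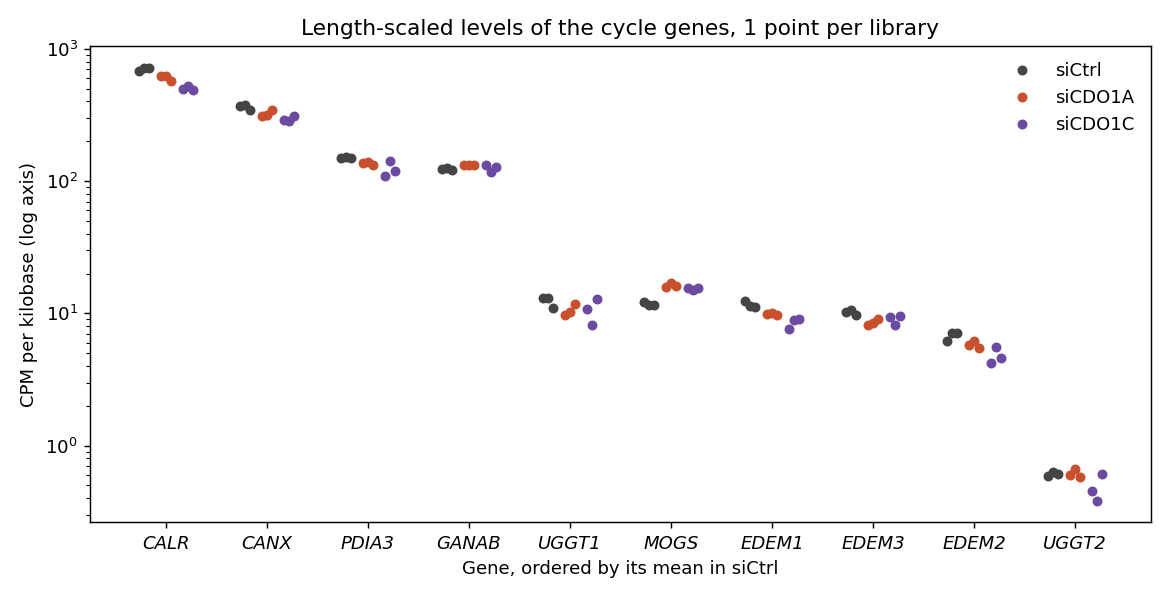
Length-scaled level (CPM per kilobase, log axis) of each cycle gene, with 1 point per library coloured by group and genes ordered by their mean in siCtrl. CALR, CANX, PDIA3 and GANAB lie above 100 CPM per kilobase in every library, and UGGT2 lies below 1.

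With siCDO1A, CANX, CALR, EDEM1 and EDEM3 were lower than in siCtrl and MOGS was higher. With siCDO1C, CANX, CALR, EDEM1 and EDEM2 were lower and MOGS was again higher. The fall of CALR was 1.16-fold with siCDO1A and 1.41-fold with siCDO1C, and the rise of MOGS was 1.38-fold and 1.30-fold. A gene was called changed at an adjusted p of at most 0.05 (edgeR's quasi-likelihood test, Benjamini-Hochberg over all genes tested). By this rule 4 of the 10 members fell and 1 rose with siCDO1A, where 7.48% of all genes tested fell and 7.37% rose. With siCDO1C 4 fell and 1 rose, against 2.50% and 2.27% of all genes. CANX, CALR and EDEM1 fell and MOGS rose with both siRNAs, as 1.72% and 1.90% of all genes did. The median log2 change of the 10 members was -0.19 with siCDO1A and -0.30 with siCDO1C, against 0.01 and 0.00 for all genes tested. These counts and medians describe the list and were given no test of their own. With the labelled batch as a block, the members called with siCDO1A went from 5 to 2 (CALR and MOGS), and those called with both siRNAs from 4 to 2. The count with siCDO1C stayed at 5. In 1 fit of all 9 libraries, 2 were called with siCDO1A and 2 with both, and the siCDO1A calls lost were those of CANX, EDEM1 and EDEM3, with an adjusted p (edgeR) of 0.146, 0.066 and 0.0572. Without siCtrl replicate 1, siCtrl replicate 2, siCDO1A replicate 1 or siCDO1A replicate 2, the members called with siCDO1A were 2, 3, 2 and 3. Without siCtrl replicate 1, 2 or 3 or siCDO1C replicate 1, those called with siCDO1C were 1, 2, 2 and 2, and those called with both siRNAs were 1, 2, 2 and 2. Those called with both were also 2 without siCDO1A replicate 1. Of all genes tested, 2309 were called with siCDO1A, 1358 with the block and 1369 in the fit of 9 libraries. Without siCtrl replicate 1 or 2 or siCDO1A replicate 1 or 2, 1292 to 1418 were. With siCDO1C 742 were called, 634 with the block and 988 in the fit of 9 libraries. Without siCtrl replicate 1, 2 or 3 or siCDO1C replicate 1, 263 to 368 were.

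**Figure D2:**
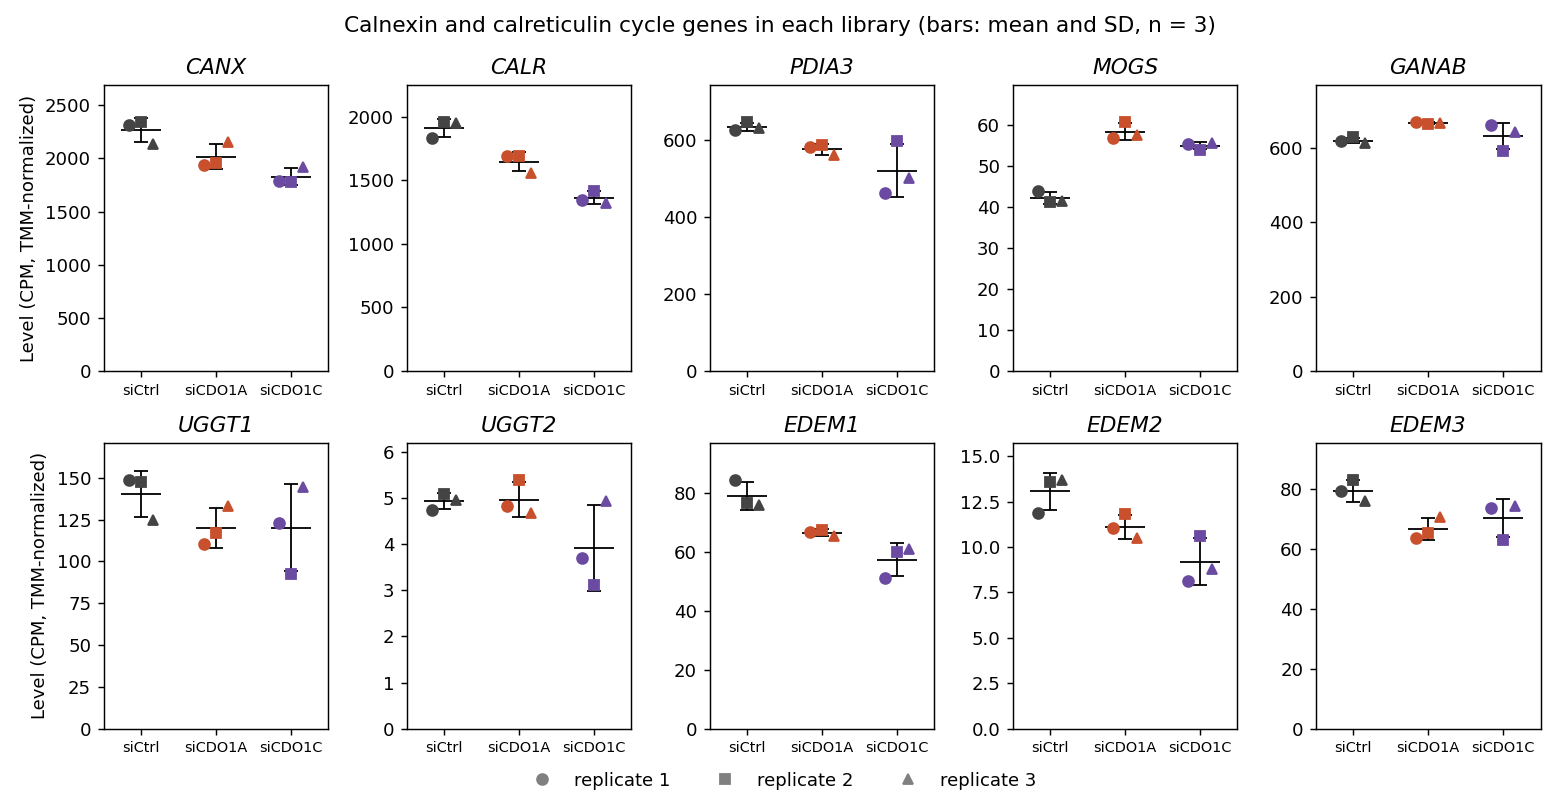
Level in CPM of each cycle gene in every library. Each panel has its own vertical axis starting at 0, points are libraries with the marker shape giving the replicate number, and the black marks are the mean and SD of 3 libraries. All 3 siCDO1C points of CALR, CANX and EDEM1 lie below all siCtrl points, and those of MOGS lie above them.

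CALR (ENSG00000179218, GRCh38 chr19:12938578-12944489, plus strand), the soluble lectin chaperone and a calcium store of the ER, was at 1828, 1955 and 1948 CPM in siCtrl. It was at 1686, 1690 and 1558 CPM in siCDO1A and at 1347, 1417 and 1322 CPM in siCDO1C. The 3 groups did not overlap: siCtrl was highest, siCDO1A between and siCDO1C lowest. The log2 change was -0.22 ± 0.049 (SE) with siCDO1A (adjusted p = 0.00475, edgeR) and -0.50 ± 0.068 with siCDO1C (adjusted p = 7.0e-04, edgeR). Within the labelled batches 1, 2 and 3 the log2 difference from siCtrl was -0.12, -0.21 and -0.32 with siCDO1A, and -0.44, -0.47 and -0.56 with siCDO1C. CALR stayed called against siCtrl with each siRNA under every alternative tried, the ones leaving out a library included.

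CANX (ENSG00000127022, chr5:179678628-179730925, plus strand), the membrane-bound lectin chaperone, was at 2318, 2341 and 2137 CPM in siCtrl. It was at 1941, 1959 and 2154 CPM in siCDO1A and at 1788, 1783 and 1919 CPM in siCDO1C. Replicate 3 of siCDO1A stood above the lowest siCtrl library, so these groups overlapped, whereas every siCDO1C library was below siCtrl. The log2 change was -0.17 ± 0.0518 with siCDO1A (adjusted p = 0.0335, edgeR) and -0.31 ± 0.0707 with siCDO1C (adjusted p = 0.0187, edgeR). The call with siCDO1A was lost with the batch as a block (adjusted p = 0.118, edgeR), and in batch 3 the log2 difference was 0.01. It was also lost without siCtrl replicate 1, siCtrl replicate 2, siCDO1A replicate 1 or siCDO1A replicate 2, with an adjusted p (edgeR) of 0.153, 0.175, 0.174 and 0.149. The call with siCDO1C was lost without siCtrl replicate 1, 2 or 3 or siCDO1C replicate 1, with an adjusted p (edgeR) of 0.135, 0.147, 0.055 and 0.103.

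The ratio of CANX to CALR on the length-scaled level was 0.552, 0.521 and 0.478 in siCtrl, 0.501, 0.504 and 0.602 in siCDO1A and 0.578, 0.548 and 0.632 in siCDO1C. The groups overlapped, and the change of the balance between the lectins was not resolved from the spread of the libraries.

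PDIA3 (ENSG00000167004, chr15:43746392-43773279, plus strand) encodes the oxidoreductase that works on glycoproteins held by either lectin. It was at 628.2, 647.2 and 631.6 CPM in siCtrl, at 581.5, 588.8 and 561.3 CPM in siCDO1A and at 462.3, 598.4 and 503.3 CPM in siCDO1C. Every knockdown library was below every siCtrl library, yet neither comparison passed the threshold. Its log2 change was -0.14 ± 0.0477 with siCDO1A (adjusted p = 0.0541, edgeR) and -0.29 ± 0.0854 with siCDO1C (adjusted p = 0.0627, edgeR). The siCDO1C libraries differed more among themselves (CV 13.4%) than those of siCtrl (1.59%), with replicate 2 the highest, and without that library the log2 change was -0.40 (adjusted p = 4.8e-07, edgeR). Without siCDO1A replicate 3 the siCDO1A change passed as well (adjusted p = 0.0411, edgeR). With any other single library of that comparison left out it did not pass, at an adjusted p (edgeR) of 0.0927 to 0.206. Nor did the siCDO1A change pass with the batch as a block, in 1 fit of all 9 libraries or without the filter, at an adjusted p (edgeR) of 0.202, 0.312 and 0.127. DESeq2 called PDIA3 in both comparisons, with an adjusted p of 0.0367 and 0.0402. PDIA3P1, a pseudogene of PDIA3 on chromosome 1, held 4.10% to 5.73% as many counts as PDIA3, and how reads were divided between them was not stated. With the counts of PDIA3 and its pseudogenes summed, the siCDO1A change passed the threshold (adjusted p = 0.0448, edgeR) and the siCDO1C change did not.

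MOGS (ENSG00000115275, chr2:74461057-74465410, minus strand), glucosidase I, was at 43.9, 41.2 and 41.4 CPM in siCtrl. It was at 56.8, 60.7 and 57.5 CPM in siCDO1A and at 55.3, 53.9 and 55.5 CPM in siCDO1C. All 6 knockdown libraries were above all siCtrl libraries, which makes MOGS the member that rose with both siRNAs. The log2 change was 0.47 ± 0.0729 with siCDO1A (adjusted p = 1.5e-04, edgeR) and 0.38 ± 0.08 with siCDO1C (adjusted p = 0.0136, edgeR). The rise was seen within each batch, at 0.37, 0.56 and 0.48 with siCDO1A and 0.33, 0.39 and 0.43 with siCDO1C. The siCDO1A call held without any single library. The siCDO1C call was lost without siCtrl replicate 1, 2 or 3 or siCDO1C replicate 1, with an adjusted p (edgeR) of 0.0511, 0.103, 0.0803 and 0.0527.

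GANAB (ENSG00000089597, chr11:62624826-62646726, minus strand), the catalytic subunit of glucosidase II, was at 618.0, 627.9 and 613.0 CPM in siCtrl. It was at 668.9, 663.2 and 666.9 CPM in siCDO1A, above every siCtrl library, and at 660.8, 591.2 and 643.6 CPM in siCDO1C, where the groups overlapped. Neither difference passed the threshold, with a log2 change of 0.11 (95% interval 0.01 to 0.20, adjusted p = 0.141, edgeR) and 0.02 (-0.13 to 0.17, adjusted p = 0.914, edgeR). PRKCSH, the other subunit of glucosidase II, had a log2 change of 0.13 with siCDO1A and 0.09 with siCDO1C and was not called, except with siCDO1A replicate 3 left out (adjusted p = 0.00608, edgeR). The ratio of GANAB to MOGS on the length-scaled level, which does not depend on the library size, was 10.0, 10.9 and 10.6 in siCtrl. It was 8.40, 7.79 and 8.27 in siCDO1A and 8.52, 7.81 and 8.26 in siCDO1C, so that each knockdown library had less GANAB per MOGS than any control library. For the other ratios between members that were computed, siCtrl overlapped each knockdown group. MOGS was called higher and GANAB was not, so the ratio of GANAB to MOGS is not a result apart from the rise of MOGS. With 3 libraries against 3 an exact two-sided permutation test cannot go below 0.1, and none was run on this ratio.

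UGGT1 (ENSG00000136731, chr2:128091200-128195677, plus strand), the folding sensor that re-glucosylates misfolded glycoproteins, was at 148.7, 147.4 and 124.6 CPM in siCtrl. It was at 110.1, 116.7 and 133.1 CPM in siCDO1A and at 123.1, 92.6 and 144.6 CPM in siCDO1C. The groups overlapped in each comparison, and siCDO1C spanned the widest range, from the lowest library of the series to one near the top of siCtrl. The log2 change was -0.22 (95% interval -0.38 to -0.06, adjusted p = 0.0526, edgeR) with siCDO1A and -0.23 (-0.55 to 0.09, adjusted p = 0.452, edgeR) with siCDO1C. Replicate 3 stood against the other batches: the log2 difference from siCtrl within batch 3 was 0.10 with siCDO1A and 0.21 with siCDO1C, against -0.43 and -0.27 in batch 1. Without siCDO1A replicate 3 the siCDO1A change was -0.30 (adjusted p = 4.4e-04, edgeR), and without siCtrl replicate 3 it was -0.30 (adjusted p = 0.00736, edgeR). Without siCtrl replicate 1 or 2 or siCDO1A replicate 1 or 2 it did not pass, at an adjusted p (edgeR) of 0.22, 0.22, 0.242 and 0.186. Nor did it pass with the batch as a block (adjusted p = 0.134, edgeR) or in 1 fit of all 9 libraries (adjusted p = 0.373, edgeR).

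UGGT2 (ENSG00000102595, chr13:95801580-96053482, minus strand), the second glucosyltransferase, rested on 41 to 80 counts per library. It was at 4.75, 5.09 and 4.96 CPM in siCtrl, at 4.83, 5.40 and 4.69 CPM in siCDO1A and at 3.69, 3.11 and 4.94 CPM in siCDO1C. The siCDO1A libraries lay on both sides of siCtrl, and siCDO1C replicate 3 fell within the siCtrl range. The 95% interval of the log2 change was -0.34 to 0.36 with siCDO1A and -0.77 to 0.08 with siCDO1C. Each interval holds the change seen for CALR with the same siRNA. The CV of UGGT2 was 3.51% in siCtrl and 23.8% in siCDO1C.

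EDEM1 (ENSG00000134109, chr3:5187646-5219957, plus strand), which hands misfolded glycoproteins to the degradation machinery, was at 84.4, 76.5 and 75.9 CPM in siCtrl. It was at 66.6, 67.6 and 65.5 CPM in siCDO1A and at 51.0, 59.9 and 61.1 CPM in siCDO1C. The order was the one seen for CALR, with no overlap between any of the groups. The log2 change was -0.25 ± 0.0671 with siCDO1A (adjusted p = 0.0165, edgeR) and -0.47 ± 0.0881 with siCDO1C (adjusted p = 0.00599, edgeR). With the batch as a block the siCDO1A call was lost (adjusted p = 0.0753, edgeR), although the log2 difference was negative in each batch, at -0.34, -0.18 and -0.21. Leaving out siCtrl replicate 1 ended it as well (adjusted p = 0.129, edgeR), and so did leaving out siCDO1A replicate 1 (adjusted p = 0.0571, edgeR). The siCDO1C call ended with siCtrl replicate 1 left out (adjusted p = 0.0673, edgeR).

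EDEM2 (ENSG00000088298, chr20:35115357-35147364, minus strand), which starts the mannose trimming that marks proteins for degradation, was at 11.9, 13.6 and 13.7 CPM in siCtrl. It was at 11.1, 11.8 and 10.5 CPM in siCDO1A and at 8.14, 10.6 and 8.81 CPM in siCDO1C. Every knockdown library was below siCtrl. On the log2 scale the change was -0.23 ± 0.119 with siCDO1A (adjusted p = 0.204, edgeR) and -0.52 ± 0.137 with siCDO1C (adjusted p = 0.0430, edgeR). Its call was lost without any one of siCtrl replicate 1, 2 or 3 or siCDO1C replicate 1 or 3, at an adjusted p (edgeR) of 0.0947, 0.178, 0.176, 0.187 and 0.0978.

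EDEM3 (ENSG00000116406, chr1:184690231-184754913, minus strand), a further mannosidase-like member, was at 79.4, 83.1 and 76.0 CPM in siCtrl. It was at 63.7, 65.4 and 70.7 CPM in siCDO1A and at 73.6, 63.2 and 74.5 CPM in siCDO1C. All knockdown libraries were below siCtrl, but those of siCDO1C came close to it. EDEM3 had a log2 change of -0.25 ± 0.0681 with siCDO1A (adjusted p = 0.0154, edgeR) and -0.18 ± 0.0852 with siCDO1C (adjusted p = 0.271, edgeR). The siCDO1A call was lost with the batch as a block (adjusted p = 0.0692, edgeR). It was also lost without siCtrl replicate 1 or 2 or siCDO1A replicate 1 or 2, at an adjusted p (edgeR) of 0.0577, 0.0984, 0.0830 and 0.0705. The ratio of EDEM3 to EDEM1 on the length-scaled level was 0.815, 0.942 and 0.867 in siCtrl and 1.25, 0.913 and 1.06 in siCDO1C, ranges that overlapped.

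**Figure D3:**
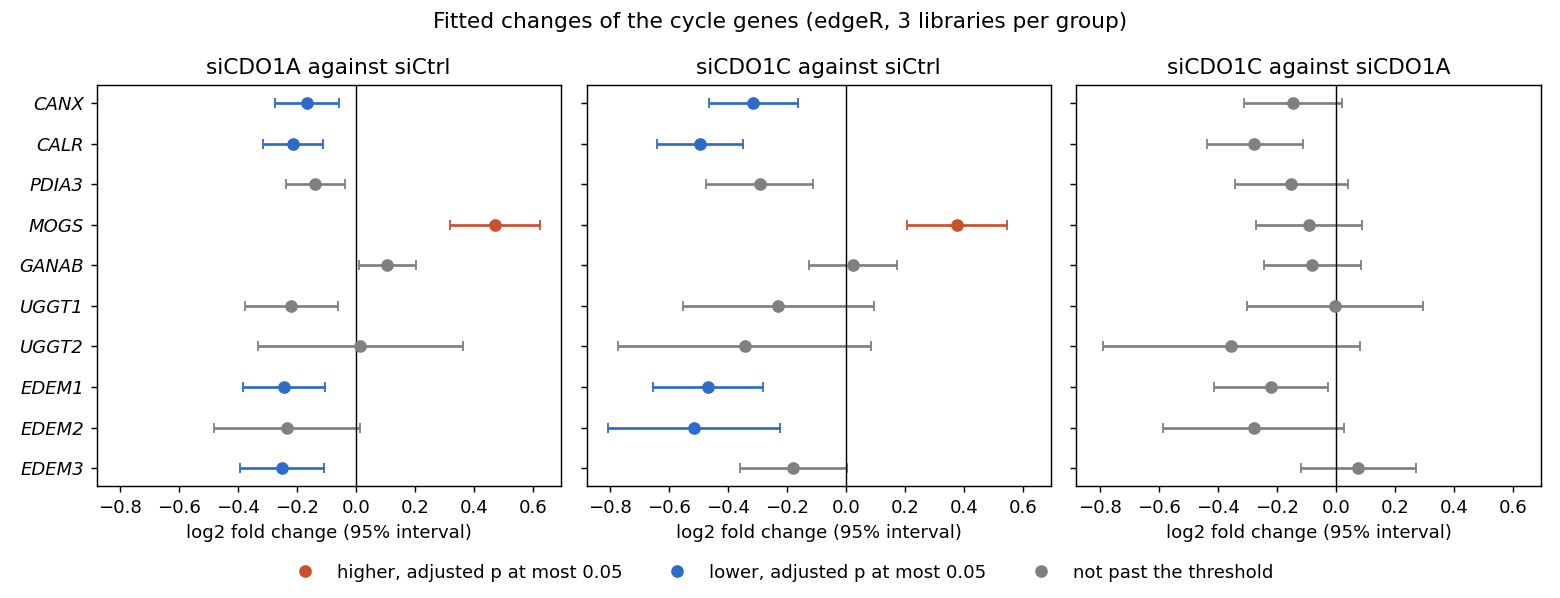
Fitted log2 fold change of each cycle gene (points) with its 95% interval (lines) in the 3 comparisons, from edgeR with 3 libraries per group. Blue marks genes called lower, red genes called higher and gray genes not past an adjusted p of 0.05. MOGS lies to the right of 0 in both comparisons with siCtrl, and none of the 10 genes is called between the siRNAs.

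Between the siRNAs, none of the 10 members was called by edgeR, and 0.444% of all genes tested were. DESeq2 called none of the members either. At an unadjusted p under 0.05, 2 members differed, CALR with a log2 difference of -0.28 (95% interval -0.44 to -0.11, adjusted p = 0.193, edgeR) and EDEM1 with -0.22 (-0.41 to -0.03, adjusted p = 0.571, edgeR). For MOGS the interval was -0.27 to 0.09, and for CANX -0.31 to 0.02. Without siCDO1C replicate 2, CALR (log2 difference -0.30, adjusted p = 0.00496, edgeR) and PDIA3 (-0.26, adjusted p = 0.0213, edgeR) were lower with siCDO1C than with siCDO1A. All genes called between the siRNAs then numbered 447, against 69 with no library left out. The siCDO1C libraries lay wholly below the siCDO1A libraries for 5 members, a separation in either direction that 12.7% of all genes showed. Against siCtrl, groups did not overlap for 7 members with siCDO1A (5 below, 2 above; 30.6% of all genes) and for 7 with siCDO1C (6 below, 1 above; 24.2% of all genes). EDEM2 was called with siCDO1C and not with siCDO1A, and EDEM3 the other way round, but neither differed between the siRNAs past the threshold, so a difference in response was not shown.

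**Figure D4:**
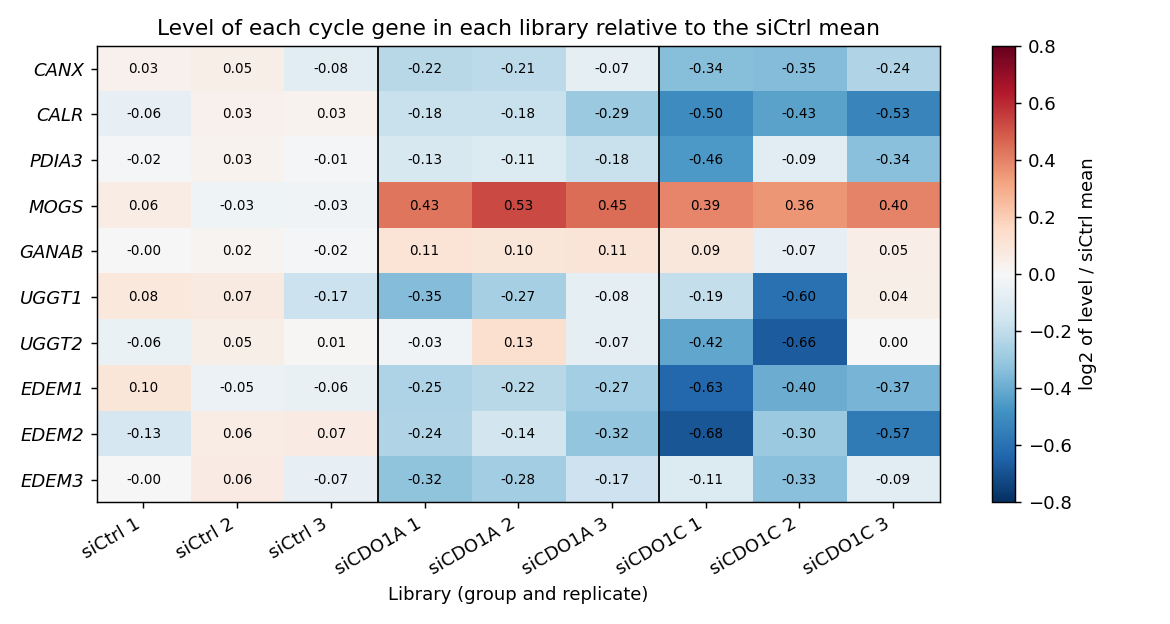
Level of each cycle gene (rows) in each library (columns) as log2 of the ratio to the siCtrl mean, printed in each cell and colored from blue (lower) to red (higher). MOGS is between 0.36 and 0.53 in the 6 knockdown libraries, CALR is between -0.53 and -0.18, and siCDO1C replicate 2 has UGGT1 at -0.60 and PDIA3 at -0.09.

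The members did not vary in step within siCDO1C. Replicate 2 departed from the mean of replicates 1 and 3 by a log2 difference of -0.53 for UGGT1, -0.47 for UGGT2 and -0.23 for EDEM3, and by 0.31 for PDIA3 and 0.33 for EDEM2. CALR (0.09), EDEM1 (0.10), MOGS (-0.04) and CANX (-0.06) moved little in that library. GANAB was at -0.14. The 3 genes that were lowest there are those with the longest gene length in the table, 11349 bases for UGGT1, 8105 for UGGT2 and 7804 for EDEM3, and EDEM2 with 1919 bases is the shortest. Among the other members the order was not that of length. EDEM1 (6758 bases) stood above the shorter GANAB (5030) and CALR (2714), and PDIA3 has 4240 bases. The part of length in this departure was not tested. Over the 9 libraries the log2 CPM of EDEM2 ran close to that of PDIA3 (Pearson's r = 0.955) and of CALR (r = 0.942), and UGGT1 ran with EDEM3 (r = 0.868), while UGGT1 and PDIA3 were nearly unrelated (r = 0.015). The libraries fall into the 3 groups, which the points share, and these coefficients are descriptions.

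Among the 11331 other genes compared, the 3 whose log2 CPM was most like that of each member called with both siRNAs over the 9 libraries were found by Pearson's r. For CALR they were H1F0 (r = 0.989), SESN2 (0.981) and RPN1 (0.980). For MOGS they were STEAP3 (0.997), EMP2 (0.977) and TRIM65 (0.977). CANX was most like ZDHHC4 (0.978), DNAJC10 (0.972) and BMPR2 (0.969), and EDEM1 was most like HERPUD1 (0.957), SAMD13 (0.956) and UGDH (0.954). These were the highest of 11331 coefficients, for members chosen because they differed between the groups that the 9 libraries form. They are descriptions, and regulation in common was not tested.

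Of 24 other genes for glycoprotein folding and glycan sorting, 23 were tested and CALR3 was not. With siCDO1A 6 of them fell and 0 rose, where 7.48% of all genes tested fell: SELENOF, the selenoprotein that binds UGGT, the oxidoreductase TXNDC11, the mannosidases MAN1A1 and MAN1A2, the lectin ERLEC1 and the cargo-receptor partner MCFD2. With the batch as a block 3 were called, and in 1 fit of all 9 libraries 1 was. The count was 2 without siCtrl replicate 1, 3 without siCtrl replicate 2 or siCDO1A replicate 1 or 2, and 10 without siCDO1A replicate 3. All genes called with siCDO1A numbered 2309 with no library left out, and 3454 without siCDO1A replicate 3. They numbered 1292 to 1418 without any one of the others named here. With siCDO1C 3 fell and 0 rose, where 2.50% of all genes fell: MLEC, a lectin for diglucosylated glycans, the prolyl isomerase PPIB and the lectin OS9. That count was 1 without any one of siCtrl replicate 1, 2 or 3 or siCDO1C replicate 1, and 9 without siCDO1C replicate 2. All genes called with siCDO1C numbered 742 with no library left out, and 2068 without siCDO1C replicate 2. They numbered 263 to 368 without any one of the others named here. None of the 23 was called with both siRNAs, where 1.72% of all genes fell and 1.90% rose with both. The median log2 change of the 23 was -0.07 with siCDO1A and -0.11 with siCDO1C, against 0.01 and 0.00 for all genes tested. MLEC went from 527.8 CPM in siCtrl to 398.0 CPM in siCDO1C (log2 change -0.41 ± 0.0716, adjusted p = 0.00349, edgeR). MAN1A1 went from 13.9 to 9.35 CPM in siCDO1A (-0.58 ± 0.152, adjusted p = 0.0135, edgeR), a call lost without siCtrl replicate 1 (adjusted p = 0.109, edgeR).

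The sensors and targets of the unfolded protein response were read from a list of 18 genes, all tested. With siCDO1A 10 of them fell and with siCDO1C 14, against 7.48% and 2.50% of all genes tested, and 0 rose with either. Their median log2 change was -0.20 with siCDO1A and -0.47 with siCDO1C, against 0.01 and 0.00 for all genes. Without siCtrl replicate 2 or siCDO1A replicate 2 the count with siCDO1A was 6. All genes called there numbered 1292 and 1336, against 2309 with no library left out. Without siCtrl replicate 1, 2 or 3 or siCDO1C replicate 1 the count with siCDO1C was 9. All genes called there numbered 263 to 368, against 742 with no library left out. The chaperone HSPA5 (BiP) fell by 0.23 with siCDO1A (adjusted p = 0.00173, edgeR) and by 0.55 with siCDO1C (adjusted p = 6.6e-04, edgeR) on the log2 scale, under every alternative tried. XBP1, the transcription factor spliced by IRE1, fell by 0.19 (adjusted p = 0.016, edgeR) and by 0.36 (adjusted p = 0.0208, edgeR). ATF4, the transcription factor of the integrated stress response, fell by 0.18 (adjusted p = 0.0275, edgeR) and by 0.38 (adjusted p = 0.0136, edgeR). With the batch as a block the siCDO1A calls of XBP1 (adjusted p = 0.0925, edgeR) and ATF4 (adjusted p = 0.122, edgeR) were lost, as they were in 1 fit of all 9 libraries (adjusted p = 0.137 and 0.150, edgeR). Leaving out siCtrl replicate 2 or 3 ended the calls of XBP1 and ATF4 with each siRNA, with an adjusted p (edgeR) of 0.063 and 0.0629 for XBP1 and 0.103 and 0.132 for ATF4 with siCDO1A, and of 0.110 and 0.125 for XBP1 and 0.0932 and 0.109 for ATF4 with siCDO1C. So did leaving out siCDO1A replicate 2 (0.0561 for XBP1 and 0.0713 for ATF4) and siCDO1C replicate 1 (0.126 and 0.0997). Further losses were those of ATF4 without siCDO1A replicate 1 (0.0657) and of XBP1 in siCDO1C without siCtrl replicate 1 (0.0996) or siCDO1C replicate 3 (0.0704). ATF6, which was not called, had a log2 change of -0.21 (adjusted p = 0.141, edgeR) with siCDO1A and -0.11 (adjusted p = 0.584, edgeR) with siCDO1C, and passed with siCDO1A once siCDO1A replicate 3 was left out (adjusted p = 0.00414, edgeR). These are transcript levels, and neither the cleavage of ATF6 nor the splicing of XBP1 was measured.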

How the data were processed

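Per the labels and the paper's methods, the authors made directional poly(A) libraries with biological replicates in numbered batches, and the submitters' processing notes name CASAVA, HISAT2 2.0.5 and hg38. Gene counts came from featureCounts, whose strand and multiple-mapping settings are not given in the sources used here. Where genes overlap CANX, CALR, PDIA3, UGGT1, UGGT2, EDEM1 or EDEM2, they held at most 39 counts. The deposited counts are whole numbers without normalization, and 3 columns that match no sample were not used.

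Genes kept by filterByExpr (minimum count 10; 15555 of 58735) were normalized by TMM and tested with the quasi-likelihood test of edgeR 4.0.16 (R 4.3.3, robust), each comparison on its 6 libraries, without a block, with Benjamini-Hochberg adjustment over all tested genes. Intervals are 95%. Errors of group means are SDs and errors of fold changes are SEs. The script was tested on simulated counts.

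The labels give batch numbers equal to the replicate numbers in each group, so the numbers pair the libraries. Same-numbered deviations from the group means correlated between -0.368 and 0.370 over 11332 genes. For numbers 1, 2 and 3 the coefficient was -0.196, -0.0872 and -0.368 between siCtrl and siCDO1A. It was 0.0504, -0.00926 and -0.271 between siCtrl and siCDO1C, and -0.131, 0.123 and 0.370 between the siRNAs. A positive correlation of same-numbered libraries was thus not seen throughout, and whether they share a batch effect was not tested. Alternatives were DESeq2 1.42.0, RLE factors, no filter, 1 fit of 9 libraries, a replicate block, leaving out each library, and PDIA3 summed with its pseudogenes.

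The members, the gene lists and the rule for named genes (all members, CDO1, 4 sentinels of the unfolded protein response and the 3 genes most correlated with each member called with both siRNAs, among genes of at least 5 CPM on average) were chosen with earlier results of these data known. PRKCSH and the genes of the glycoprotein list called with 1 siRNA were named after their values were seen, and the alternatives for them and the sentinels were added after seeing the data.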

Additional observations from a re-analysis of the deposited data

How the results depend on the processing

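The calls of CALR with both siRNAs and of MOGS with siCDO1A held under every alternative run, and so did the fall of CDO1. With 1 fit of all 9 libraries, 2 members were called with siCDO1A, 2 with both siRNAs, and 1 of the other glycoprotein folding genes with siCDO1A. With the replicate block, which pairs libraries by the labelled batch, these counts were 2, 2 and 3, and the block changed no other call of a member. Leaving out a library, which also leaves fewer samples, gave 2 to 7 members called with siCDO1A, 1 to 6 with siCDO1C, 0 to 2 between the siRNAs and 1 to 4 with both siRNAs, and 2 to 10 and 1 to 9 of the other glycoprotein folding genes with siCDO1A and siCDO1C, and 6 to 11 and 9 to 17 of the unfolded protein response genes. The direction turned for changes near 0 only: UGGT1 between the siRNAs (-0.005 on the log2 scale) was 0.002 with DESeq2, 0.001 with RLE factors, 0.004 without the filter and -0.159 to 0.151 without a library, UGGT2 with siCDO1A was -0.053 to 0.057 and GANAB with siCDO1C -0.005 to 0.071 without a library. UGGT1 with siCDO1A passed with RLE factors and without the filter, PDIA3 with siCDO1A with RLE factors (adjusted p = 0.048, edgeR), and PDIA3 with siCDO1C without the filter and in the fit of 9 libraries. Why these calls moved was not tested. With a library left out, all genes called numbered 1292 to 3454 with siCDO1A and 263 to 2068 with siCDO1C. Between the siRNAs they numbered 18 to 447. UGGT2 rested on 41 to 80 counts per library.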
